A study of Homo sapiens with 23 samples.

Results

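The interleukin-1 and interleukin-36 family was followed through xenografts of the human skin squamous carcinoma line SCC-13, an established cell line, with Flower knocked out or intact. The 10 members (IL1A, IL1B, IL1RN, IL18, IL33, IL36A, IL36B, IL36G, IL36RN and IL37) were taken by gene symbol from a table of 27589 genes. Of these, 9 had values, IL36A was not analysed here, and 7 reached the mean normalised count of 10 over all tumours that was required for testing. No member was called between knockout and wild-type tumours. IL18 had a log2 difference of -0.52 (-0.38 without the shallowest wild-type library), with each of the 11 knockout tumours under the wild-type median. Among knockout tumours IL18 and the receptor antagonist IL1RN were high where late keratinocyte differentiation genes were high. Whether this relation differed between genotypes was not tested. IL1A and IL36RN instead followed a split of the tumours by the expression level of chromosome 20.

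Interleukin-1 family cytokines are alarm signals of barrier tissues, and keratinocytes are a major source of them in skin. Agonists bind a specific receptor chain, recruit an accessory chain (IL1RAP for IL1A, IL1B, IL33 and the IL36 agonists, IL18RAP for IL18) and signal through MYD88 and IRAK kinases to NF-kB, whereas IL1RN and IL36RN occupy the same receptors without recruiting the accessory chain. Several members are made as precursors that proteases cut, such as caspase-1 for IL1B and IL18, so transcript levels do not give the level of active cytokine. In the epidermis IL18 and IL1A are stored by living keratinocytes, and the IL36 cytokines and their antagonist are known for their part in psoriasis.

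The KO tumours carried a knockout of hFWE (human Flower, gene symbol CACFD1, a membrane protein with several isoforms) and came from the lines 2F7 (3 tumours), 2B8 and 1G10 (4 tumours each). The WT tumours had intact hFWE and came from the lines 5B2, 6C9 and 6C10 (4 tumours each). All 23 tumours (11 KO, 12 WT) grew from SCC-13 cells in Matrigel under the flank skin of NCG mice, which lack functional lymphocytes and keep mouse myeloid cells, and were collected on day 26 without a stated treatment or host age. The labels give the lines as codes only, do not say whether each is 1 clone and leave unsaid whether each mouse carried a single tumour. The p-values therefore rest on the spread among these 23 tumours alone. Tumours are named by genotype, line and specimen number.

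Poly(A) RNA was sequenced from 500 ng per tumour, and the values are normalised counts, a read abundance scaled per library by the authors. Estimated reads per library ranged from 13082603 to 22092275 in 21 tumours. Line 6C9 held the remaining 2, both WT, where specimen 5532 had 7010962 reads and specimen 5533 had 2037744. There 1 read in specimen 5533 was worth 9.14 normalised counts. Specimen 5533 had 17582 genes above 0 and 6.21% of its signal in mitochondrial genes, so results that rest on it are also given without it. CACFD1 itself averaged 276 ± 58.9 in KO tumours and 373 ± 47.1 in WT tumours (SD, n = 11 and 12), a gene-level value that does not show whether a transcript carried the edit. The KO lines averaged 342 (2F7), 265 (2B8) and 237 (1G10), and the WT lines 403 (5B2), 331 (6C9) and 384 (6C10). KO line 2F7 thus lay above WT line 6C9. Keratinocyte identity was plain in both genotypes, with KRT14 at 344913 ± 40380 in KO tumours and 289083 ± 61231 in WT tumours (SD, n = 11 and 12). In bulk tumour RNA, fewer cells of a type and less RNA per cell cannot be told apart.

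Of the members with values, 7 lie in 1 cluster on chromosome 2 (hg38, coordinates from the authors' table). Its ends are IL1A (ENSG00000115008, 112773925 to 112784493, minus strand) and IL1RN (ENSG00000136689, 113107214 to 113134016, plus strand). Between them lie IL1B (ENSG00000125538, 112829751 to 112836816, minus strand), IL37, IL36G (ENSG00000136688, 112973203 to 112985658, plus strand), IL36B (ENSG00000136696, 113022089 to 113052867, minus strand) and IL36RN (ENSG00000136695, 113058638 to 113065382, plus strand). IL18 (ENSG00000150782) occupies 112143253 to 112164096 of chromosome 11 (minus strand), and IL33 is on chromosome 9. The span of 1 other gene in the table, a protein-coding gene without a symbol on the opposite strand, overlapped IL18, with a mean of 2.35 and at most 24.3 normalised counts.

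RefSeq promoter windows, from 250 bases before to 50 after a transcript start on GRCh38.p14, were found for 8 of the 10 members, 14 windows in all, and none was matched for IL18 and IL36B. The windows shown belong to an agonist and an antagonist of the interleukin-1 receptor and to the interleukin-36 agonist and antagonist whose levels were correlated within KO tumours. Capitals mark matches, on either strand, to the AP-1 motif TGANTCA, the NF-kB motif (GGG, any 2 bases, TTTCC) and the TATA box TATAAA, which 7.71%, 1.91% and 11.5% of 35116 RefSeq promoter windows of that length hold.
IL1A, chr2:112784444-112784743, minus strand: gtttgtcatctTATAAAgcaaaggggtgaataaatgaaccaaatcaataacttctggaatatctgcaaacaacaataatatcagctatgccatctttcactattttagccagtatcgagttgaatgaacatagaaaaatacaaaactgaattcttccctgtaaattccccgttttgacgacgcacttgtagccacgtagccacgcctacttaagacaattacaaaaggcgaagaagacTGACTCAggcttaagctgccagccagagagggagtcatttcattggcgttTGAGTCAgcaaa
IL1RN, chr2:113127348-113127647, plus strand: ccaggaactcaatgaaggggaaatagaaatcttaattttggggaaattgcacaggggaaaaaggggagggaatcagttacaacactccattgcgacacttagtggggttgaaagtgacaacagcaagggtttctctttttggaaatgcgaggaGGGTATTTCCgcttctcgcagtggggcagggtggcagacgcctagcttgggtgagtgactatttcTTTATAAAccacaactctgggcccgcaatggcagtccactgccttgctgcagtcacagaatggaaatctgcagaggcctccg
IL36G, chr2:112977756-112978055, plus strand: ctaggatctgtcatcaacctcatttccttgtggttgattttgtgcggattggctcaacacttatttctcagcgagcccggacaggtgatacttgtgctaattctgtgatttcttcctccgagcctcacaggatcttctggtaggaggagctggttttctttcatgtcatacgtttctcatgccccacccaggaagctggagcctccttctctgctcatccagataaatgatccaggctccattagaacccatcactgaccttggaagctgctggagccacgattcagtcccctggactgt
IL36RN, chr2:113058388-113058687, plus strand: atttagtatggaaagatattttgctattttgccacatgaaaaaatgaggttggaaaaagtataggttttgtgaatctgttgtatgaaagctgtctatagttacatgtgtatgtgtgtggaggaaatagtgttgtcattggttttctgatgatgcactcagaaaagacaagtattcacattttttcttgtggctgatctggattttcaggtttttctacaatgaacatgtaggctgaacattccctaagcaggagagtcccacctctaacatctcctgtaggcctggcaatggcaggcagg
The IL1A window, 1 of 2 matched for this gene, held 2 AP-1 matches, whose first bases are at -12 and 39 from the start, and a TATA box match at -239. The IL1RN window, 1 of 3 matched for this gene, held an NF-kB match at -97 from the start and 2 overlapping TATA box matches, 1 per strand, at -32 and -30. A different IL1RN window, which begins at 113117721, held an AP-1 match at -223 and no NF-kB or TATA box match. The IL36G window and the IL36RN window, 1 of 2 matched for IL36RN, held none of the 3 motifs, which says only that these letters are not in these windows.

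Per length of exon, the antagonists and IL18 stood at the top of the family and IL1B far below. IL18 averaged 344 ± 74.3 normalised counts per kb of exon in KO tumours and 528 ± 284 in WT tumours, and IL36RN averaged 344 ± 136 in KO tumours and 312 ± 107 in WT tumours (SD, n = 11 and 12 here and below). IL1RN followed at 215 ± 65.9 per kb in KO tumours and 254 ± 29.6 in WT tumours. These top 3 levels overlapped across tumours. IL1A came next with 70.9 ± 24.8 per kb in KO tumours and 70.8 ± 22.4 in WT tumours, then IL36G with 45.4 ± 22.0 in KO tumours and 45.9 ± 19.3 in WT tumours. IL36B stood at 20.6 ± 7.99 per kb in KO tumours and 23.9 ± 10.1 in WT tumours, and IL1B at 4.36 ± 1.96 in KO tumours and 3.74 ± 2.09 in WT tumours. Each of these neighbours overlapped the one above it in some tumours except IL1B, whose only overlap with IL36B was through the 0 of IL36B in WT 6C9 5533. IL33 and IL37 were at the edge of detection in both genotypes.

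**Figure D1:**
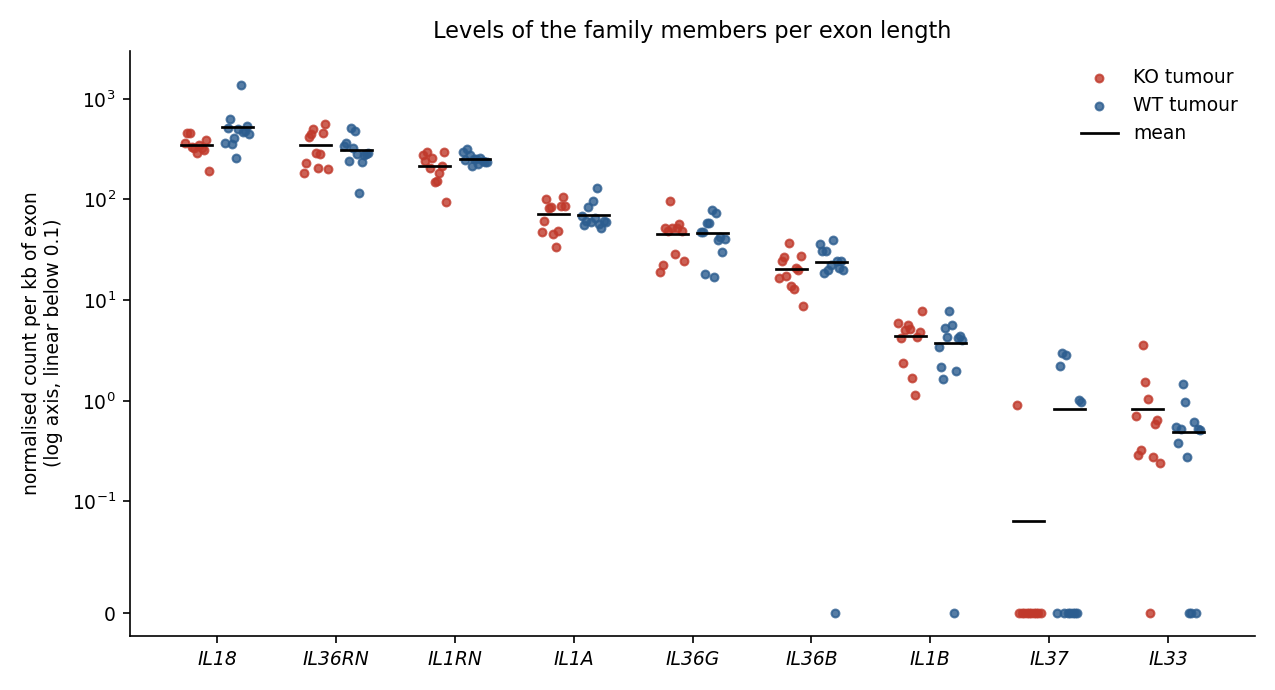
Normalised count per kb of merged exon (log axis, linear below 0.1) for the 9 members with values, with KO tumours (red, left) beside WT tumours (blue, right) and the mean of each group as a black line. The antagonists IL36RN and IL1RN and the agonist IL18 lie above 200 on average in both genotypes, while IL1B averages 4.36 in KO tumours and 3.74 in WT tumours.

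None of the 7 tested members was called between KO and WT tumours at an adjusted p under 0.05 by limma, where 1 of 16063 genes was called (0.00623%). At an unadjusted p under 0.05 there was 1 member of 7, IL18, against 12.5% of all genes. The median log2 difference was -0.03 over the 7 members, with 4 below 0 and 3 above it, and 0.03 over all genes. Means of the 3 KO lines all lay below those of the 3 WT lines for IL18 and all above them for IL1B. Among all genes 8.87% had their KO line means all below, 9.77% all above, and 18.6% did not overlap in either direction.

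**Figure D2:**
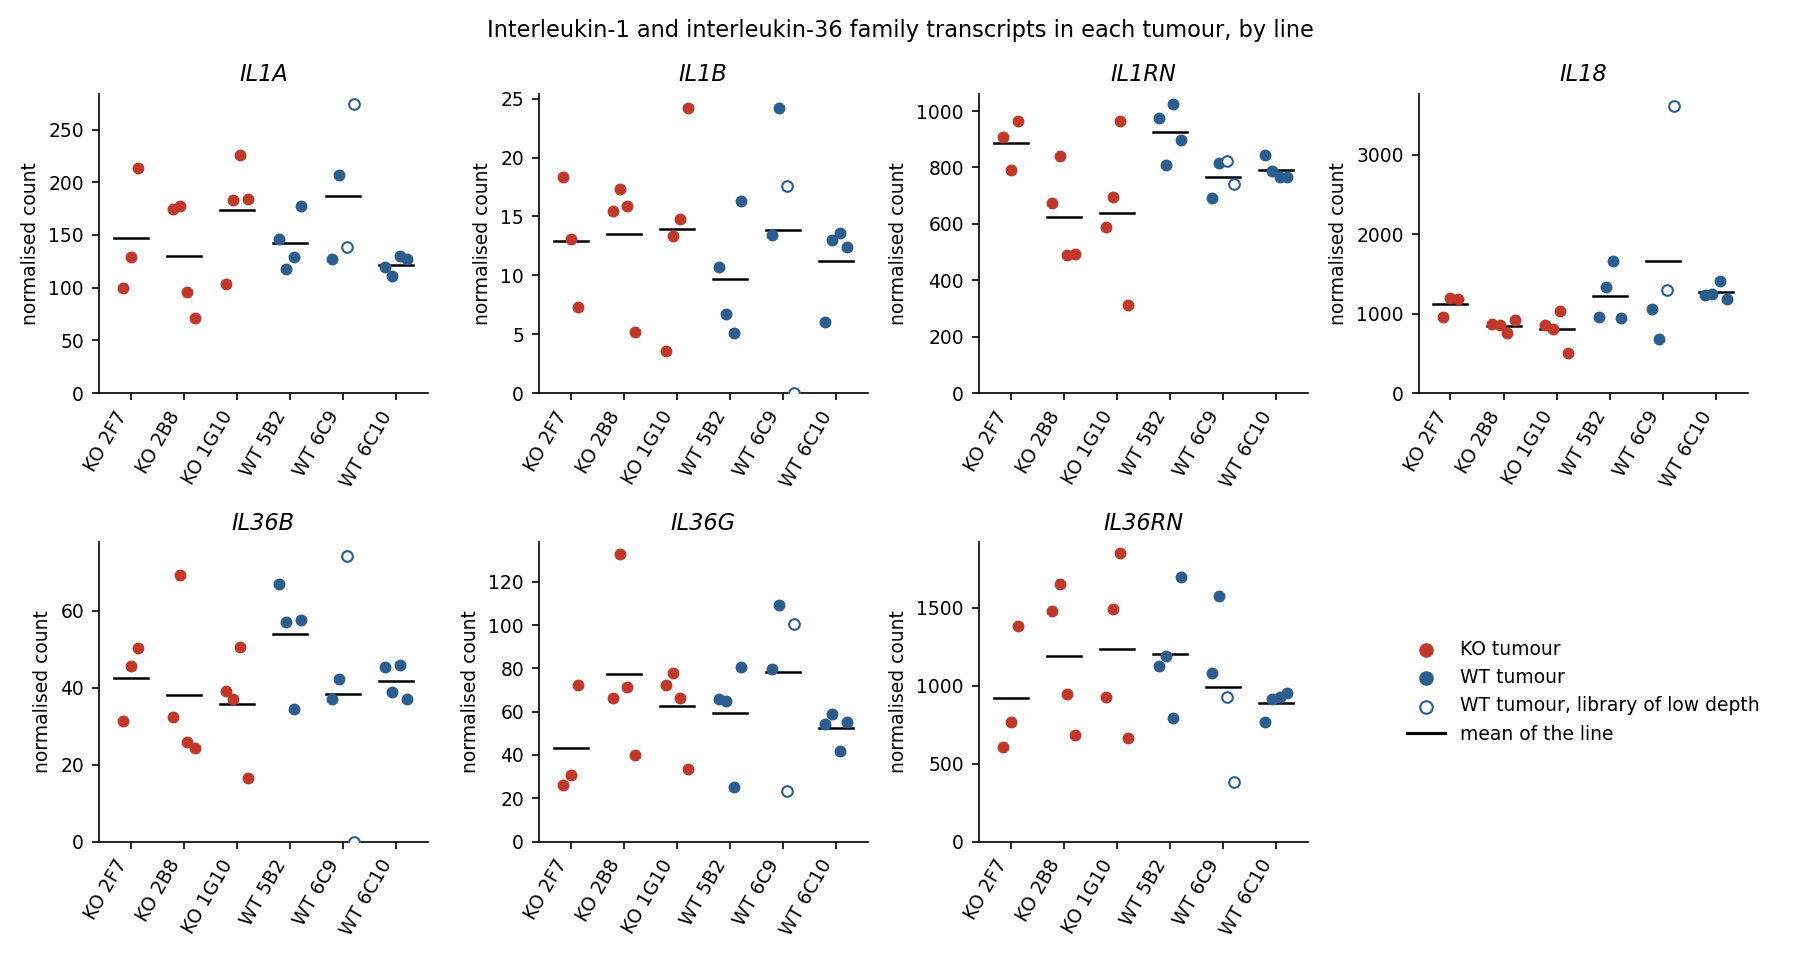
Normalised count of the 7 tested members in each tumour, with the KO lines (red) left of the WT lines (blue), open circles for the 2 WT 6C9 libraries of low depth and a black line for each line's mean. IL18 in KO tumours stays at or below 1202 in all 3 lines. IL1RN reaches down to 490.3 in KO line 2B8 and to 311 in KO line 1G10. The WT 6C9 library at 3618 for IL18 is at 0 for IL1B and IL36B.

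IL18, a cytokine that caspase-1 activates and that drives interferon gamma production, had the largest negative difference with all tumours in; without WT 6C9 5533 that of IL36B was about as large. Line 2F7 had 958, 1190.6 and 1202 normalised counts, line 2B8 had 761, 852, 869 and 914, and line 1G10 had 509, 808, 862 and 1031 among KO tumours. Among WT tumours, line 5B2 had 941, 960.5, 1336 and 1665, line 6C9 had 684, 1061, 1303 and 3618, and line 6C10 had 1179, 1236, 1245 and 1412. Each KO tumour was under the WT median of 1241, but 5 WT tumours also lay below the highest KO value, so the groups overlapped.

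The mean of IL18 was 905 ± 195 in KO tumours and 1387 ± 747 in WT tumours (SD, n = 11 and 12). In limma the log2 difference was -0.52 (SE 0.19, 95% interval -0.92 to -0.13, unadjusted p = 0.012, adjusted p = 0.297). Line 1G10 against the WT lines gave -0.71, 2B8 gave -0.58 and 2F7 gave -0.19. The highest WT value, 3618, was that of the shallowest library, WT 6C9 5533, where it rests on 396 reads. Without this tumour the difference was -0.38 and the KO line 2F7, at a mean log2 of 10.1, lay above WT line 6C9 at 9.94, so the separation of line means did not hold. Without both shallow libraries the difference was -0.35 (adjusted p = 0.437), and each KO tumour was still under the WT median. With library quality weights IL18 was called at -0.43 (adjusted p = 0.0315), a setting in which 738 genes were called. The adjusted p of IL18 ran from 0.0315 to 0.932 over all alternatives.

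IL1RN, the secreted and intracellular antagonist of the interleukin-1 receptor, was more spread in KO than in WT tumours. Among KO tumours, line 2F7 had 791, 906 and 964 normalised counts, line 2B8 had 490.3, 493, 676 and 839.8, and line 1G10 had 311, 590.5, 694 and 963. WT tumours ran from 692 to 1026, with a median of 812. Of the KO tumours, 7 lay below the WT median and 4 above it. The highest value was 3.10 times the lowest among KO tumours and 1.48 times among WT tumours, a difference in spread that was not tested.

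The mean of IL1RN was 702 ± 215 in KO tumours and 828 ± 96.3 in WT tumours (SD, n = 11 and 12), and the log2 difference in limma was -0.30 (SE 0.15, 95% interval -0.61 to 0.0050, unadjusted p = 0.054, adjusted p = 0.408). Lines 2B8 and 1G10 gave -0.43 and -0.48 against the WT lines, and line 2F7 gave 0.10. With KO 1G10 5549 left out, the lowest tumour, the difference was -0.19.

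IL1A, an agonist that is active as a precursor and is released on cell injury, spread as widely within a genotype as between genotypes. KO tumours ran from 70.8 to 226 normalised counts with a median of 175, and WT tumours from 111 to 274 with a median of 130. The means were 151 ± 52.6 in KO tumours and 150 ± 47.5 in WT tumours (SD, n = 11 and 12), a log2 difference of -0.03 (95% interval -0.43 to 0.36, adjusted p = 0.935 in limma).

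IL1B, the agonist of inflammasome-bearing cells, was scarce. KO tumours ran from 3.56 to 24.2 normalised counts with a median of 14.8, and WT tumours from 0 to 24.2 with a median of 12.7. These values rest on 175 reads over all KO tumours and 151 reads over all WT tumours. The log2 difference was 0.36 (95% interval -0.52 to 1.23, adjusted p = 0.680 in limma) and 0.05 without WT 6C9 5533, which had 0 IL1B reads at a depth where 3 reads would give 27.4. Without this tumour WT line 6C9, at a mean log2 of 4.24, lay above all KO lines.

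The interleukin-36 members differed between genotypes by less than their spread. IL36G, a keratinocyte agonist, ran from 26.0 to 133 normalised counts with a median of 66.5 in KO tumours and from 23.4 to 109 with a median of 61.9 in WT tumours. Its log2 difference was -0.03 (95% interval -0.61 to 0.55, adjusted p = 0.961 in limma). IL36B, a further agonist, ran from 16.4 to 69.4 with a median of 37.1 in KO tumours and from 0 to 74.1 with a median of 43.8 in WT tumours. Its difference of 0.08 (95% interval -0.96 to 1.11, adjusted p = 0.945 in limma) was -0.39 without WT 6C9 5533, the tumour at 0. The KO line means then all lay below the WT line means (exact permutation p = 0.1, the smallest possible). That order was bare, with KO 2F7 at a mean log2 of 5.4137 and WT 6C10 at 5.4143. The share of all genes with that order in this setting is not given here. Without both shallow libraries WT 6C9, at 5.34, lay below KO 2F7, so the separation did not hold (exact permutation p = 0.2).

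IL36RN, the antagonist of the interleukin-36 receptor, spread widely within every KO line. Line 2F7 had 607, 768 and 1385 normalised counts, line 2B8 had 685, 946, 1481 and 1654, and line 1G10 had 668, 928, 1496 and 1850.0 among KO tumours. Among WT tumours the lowest was 384 (specimen 5533), the median 941 and the highest 1698. High and low tumours occurred in every KO line, so the lines overlapped throughout. The log2 difference was 0.12 (95% interval -0.35 to 0.58, adjusted p = 0.802 in limma), and -0.0027 without WT 6C9 5533.

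IL33, a nuclear alarmin of epithelial and endothelial cells, was above 0 in 10 of 11 KO tumours and 9 of 12 WT tumours. It had 36 reads in all KO tumours and 22 in all WT tumours, and its highest value was 11.6 normalised counts (15 reads) in KO 2B8 5542. IL37, an inhibitory member found in upper epidermis, was above 0 in 1 of 11 KO tumours and 5 of 12 WT tumours, with 1 read over all KO tumours and 11 over all WT tumours. At 3 reads per library as the limit of detection, which covers counting error only, the floor lay between 2.21 and 3.17 normalised counts in KO tumours and between 1.84 and 5.85 in WT tumours, apart from 27.4 in WT 6C9 5533. Neither gene was tested between genotypes.

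**Figure D3:**
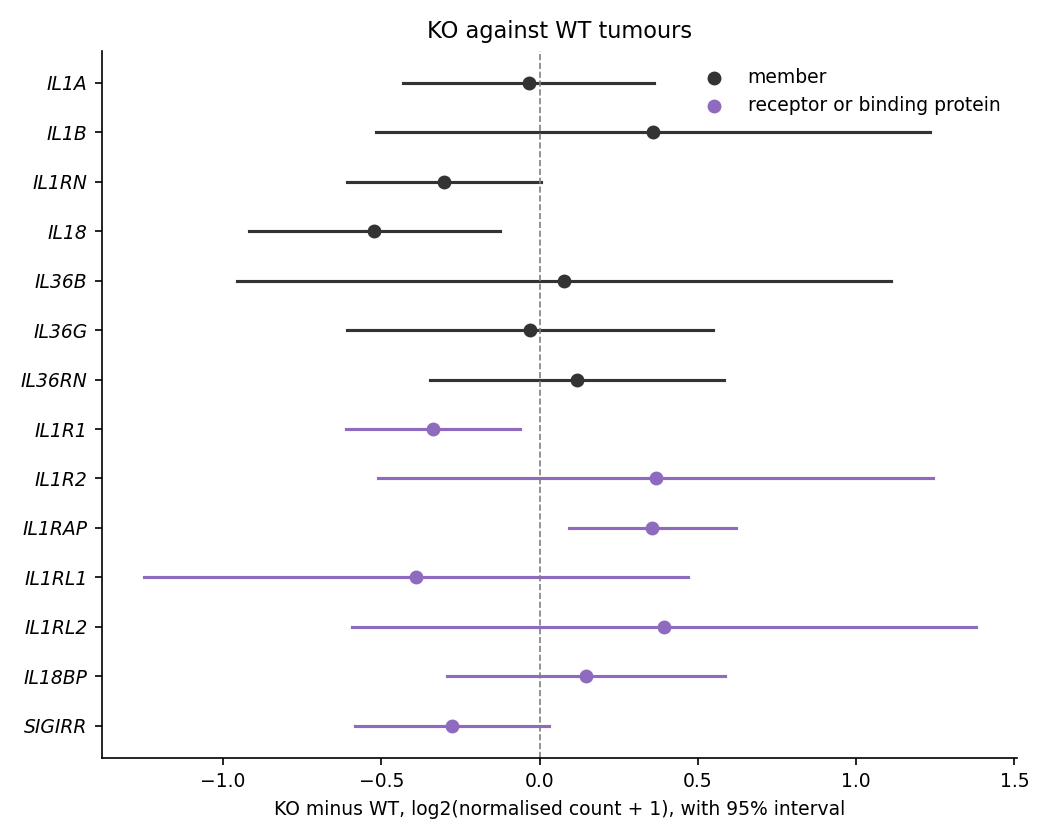
Difference between KO and WT tumours in log2(normalised count + 1) for the 7 tested members (black) and 7 tested receptors and binding proteins (purple), with the limma 95% interval as a line. The intervals of IL18, IL1R1 and IL1RAP lie off 0, at -0.52, -0.34 and 0.36, and none of the 14 genes passed adjustment.

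Between single KO lines and the WT lines, or among the lines of a genotype, no member was called either. By limma at an adjusted p under 0.05, 0 of 16063 genes were called for each KO line (0%) and among KO lines (0%), and 1 among WT lines (0.00623%). At an unadjusted p under 0.05 there were 0 of 7 members in line 2F7 (2.48% of all genes), 2 of 7 in 2B8 (8.19%) and 2 of 7 in 1G10 (9.66%), in both cases IL18 and IL1RN. Among KO lines 0 of 7 members passed that mark (2.22% of all genes), and among WT lines 0 of 7 (10.3%). The 3 KO lines share the WT tumours as controls. The exact permutation test of 3 against 3 line means, two-sided, gave p = 0.1 for IL18 and for IL1B, the smallest it can give, and 0.3 to 1.0 for the other 5 members.

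The balance of antagonist to agonist was compared as the log2 ratio of their normalised counts. The log2 ratio of IL1RN to IL1A was 2.23 ± 0.62 in KO tumours and 2.50 ± 0.43 in WT tumours (SD, n = 11 and 12), a difference of -0.27 (two-sided permutation p = 0.244, adjusted p = 0.488 over the 2 ratios). It ran from 0.75 to 3.17 in KO tumours and from 1.43 to 2.98 in WT tumours, with KO 1G10 5549 the lowest, and without that tumour the difference was -0.12. The lowest WT ratio, 1.43, was that of 6C9 5533. With 5533 left out the WT tumours averaged 2.59 ± 0.28 (SD, n = 11) and the difference was -0.37 (permutation p = 0.078). The log2 ratio of IL36RN to IL36G was 4.20 ± 0.39 in KO tumours and 4.05 ± 0.81 in WT tumours, a difference of 0.15 (permutation p = 0.631, adjusted p = 0.631). Without WT 6C9 5533, whose ratio was 1.92, the WT tumours averaged 4.24 ± 0.48 (SD, n = 11) and the difference was -0.043. With all tumours in, neither difference exceeded the SD of either group. These permutations shuffled single tumours, although every line has 1 genotype. On line means, with all tumours in, the exact permutation p was 0.5 for IL1RN to IL1A and 0.6 for IL36RN to IL36G (smallest possible 0.1).

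IL18 and IL1RN were read against a score of late keratinocyte differentiation, whose range was wider among KO tumours through KO 1G10 5549. The score, the mean log2 value of 20 late differentiation genes, ran from 9.68 to 13.1 in KO tumours and from 12.1 to 13.6 in WT tumours. KO 1G10 5549 held the 9.68, and the next lowest KO tumour, 2B8 5542, was at 11.6. In limma 0 of the 20 genes were called, 15 were lower in KO tumours at an unadjusted p under 0.05 (12.5% of all genes in either direction), and their median log2 difference was -0.94. Of 11 basal keratinocyte genes 0 were called and 7 were higher at that mark, with a median of 0.48, which was 3 genes and 0.29 without the 2 shallow libraries.

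Across the 23 tumours IL18 had a Pearson r of 0.70 with the score (permutation p = 0.00183, adjusted p = 0.00640) and a Spearman rho of 0.81 (p = 3.0e-05, adjusted p = 0.00021), and IL1RN had an r of 0.81 (p = 1e-04, adjusted p = 0.00070) and a rho of 0.55 (p = 0.00725, adjusted p = 0.0254), adjusted over 7 members. Without the 2 tumours farthest from the median score, r was 0.62 for IL18 (adjusted p = 0.00707) and 0.60 for IL1RN (adjusted p = 0.0114), where the rho of IL1RN was 0.42 (adjusted p = 0.121) and did not pass. Within the 11 KO tumours r was 0.93 for IL18 and 0.91 for IL1RN (permutation, adjusted p = 0.00115 for both). The rho there was 0.81 for IL18 and 0.83 for IL1RN (permutation, adjusted p = 0.0148 for both). These KO values include 1G10 5549, which lies far below the rest in score. Within the 12 WT tumours r was 0.45 for IL18 (adjusted p = 0.268) and 0.14 for IL1RN (adjusted p = 0.782), over the narrower range of scores there. That WT value of IL18 includes the shallowest library, which had the highest IL18 of all tumours. Without the 2 shallow libraries, both WT, r over 21 tumours was 0.87 for IL18 (permutation, adjusted p = 7.0e-05, rho 0.84). For IL1RN it was 0.81 (permutation, adjusted p = 0.000175, rho 0.60). Whether the relation differed between genotypes was not tested. The 3 tumours of line 2F7 and 1G10 5548 had the highest IL18 among KO tumours, at 958 to 1202, and had 791 to 964 of IL1RN, while KO 1G10 5549 was lowest in both genes and in the score.

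IL36B had an r of 0.82 with the score within KO tumours (permutation, adjusted p = 0.00303) and -0.028 within WT tumours, where WT 6C9 5533 was at 0. Its rho within KO tumours was 0.75 (permutation, adjusted p = 0.0272). IL1B went the other way in rank, with a rho of -0.51 over all tumours (permutation p = 0.0151, adjusted p = 0.0352) and an r of -0.35 (adjusted p = 0.213). Its rho was -0.41 without the 2 farthest tumours (adjusted p = 0.121), which did not pass, and -0.53 without the 2 shallow libraries (adjusted p = 0.0346). For IL1A, IL36G and IL36RN the r lay between -0.10 and -0.03. With the score as a covariate the KO minus WT difference was -0.16 for IL18 and 0.05 for IL1RN. Whether the score accounts for these differences was not tested, since genotype and score move together.

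**Figure D4:**
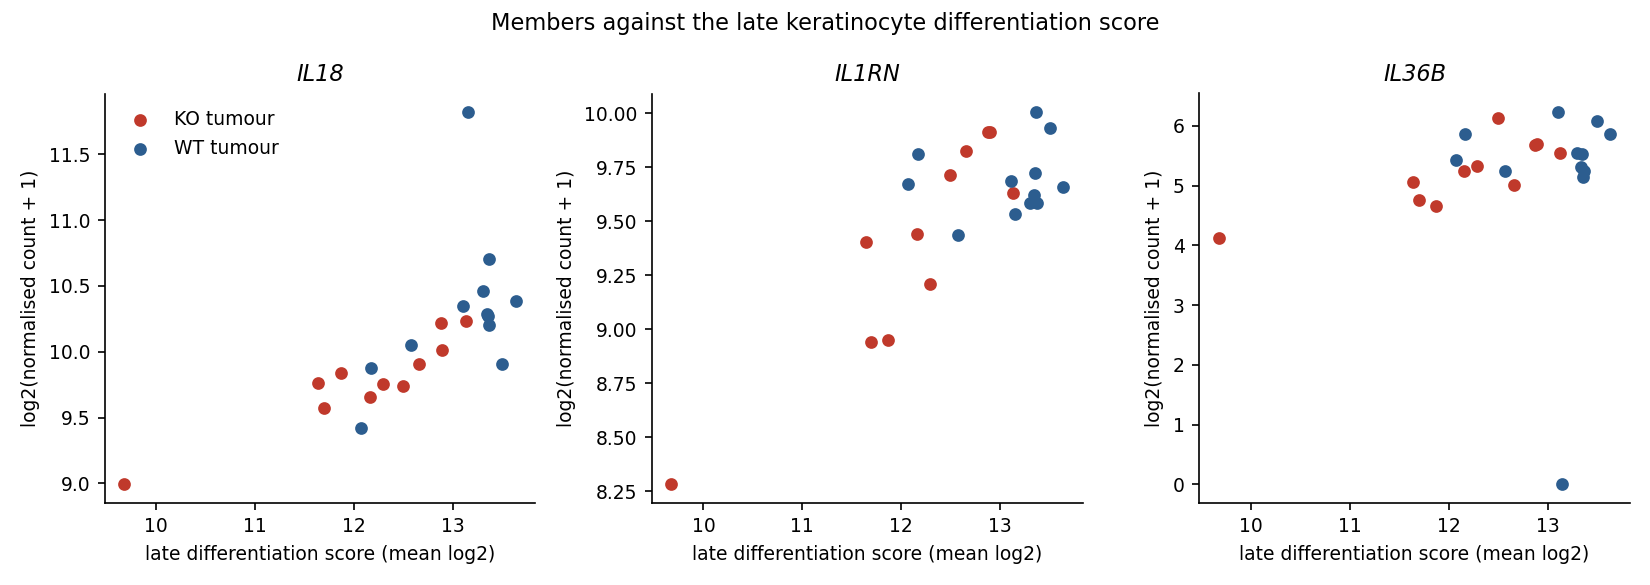
log2(normalised count + 1) of IL18, IL1RN and IL36B against the late differentiation score (mean log2 of 20 genes) in each KO (red) and WT (blue) tumour. In KO tumours all 3 transcripts climb with the score (r of 0.93, 0.91 and 0.82), KO 1G10 5549 sits alone at a score of 9.68, and the WT tumours crowd between 12.1 and 13.6.

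The genes most like each member across the 23 tumours set IL1A apart. Among genes with a mean of at least 50, those with the highest Spearman rho were EIF6 (0.93) and DYNLRB1 (0.91) for IL1A, both on chromosome 20, IGFL2 (0.96) and KRTDAP (0.95) for IL18, and BDH1 (0.87) and the transglutaminase TGM1 (0.84) for IL1RN. For IL36RN they were CDKN1A (0.88) and TOLLIP (0.88), for IL36G WAC-AS1 (0.81) and TMBIM1 (0.81), for IL36B ANK3 (0.83) and PGM2 (0.82), and for IL1B WDR1 (0.83) and ENC1 (0.83). Of the 100 genes most like IL1A, 65 lay on chromosome 20, which holds 322 of the 11782 genes compared (2.73%). The same count was 20 for IL36RN, 17 for IL1B, 14 for IL36G, 3 for IL36B, 2 for IL1RN and 1 for IL18. IL1A itself lies on chromosome 2.

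The chromosome 20 level of a tumour, the median over its chromosome 20 genes of the log2 value centred on each gene's own median, minus the same median over all genes, fell into separate ranges, so no correlation over all tumours is given. In 8 tumours, 6 KO and 2 WT, it lay between 0.23 and 0.43, and in 15 tumours, 5 KO and 10 WT, between -0.12 and -0.07. The 8 were spread over lines: KO 2F7 5540, KO 2B8 5542 and 5543, KO 1G10 5547, 5548 and 5549, WT 5B2 5529 and WT 6C9 5531. All 8 had 175 to 226 normalised counts of IL1A, against at most 146 in 14 of the other 15 tumours, and WT 6C9 5533 had 274. IL36RN was at 1385 to 1850.0 in 7 of the 8 and at 668 in KO 1G10 5549, while the other 15 had 384 to 1194. IL18 did not share this pattern upward, with 509 to 1191 (median 861) in the 8 tumours and 761 to 3618 (median 1202) in the 15. Among WT tumours the 2 of higher level had 684 and 941 of IL18, below the 10 of lower level at 960.5 to 3618. Among KO tumours the ranges overlapped, with 509 to 1191 in the 6 and 761 to 1202 in the 5. Level and genotype move together here, and their separate parts in the IL18 values were not tested.

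Within each genotype the split of IL1A was clear of overlap among KO tumours only. Among KO tumours IL1A ran from 175 to 226 in the 6 with the higher chromosome 20 level and from 70.8 to 129.5 in the 5 with the lower one. Among WT tumours it was 178 and 206 in the 2 with the higher level and 111 to 274 in the 10 with the lower one, so these WT ranges overlapped through 6C9 5533, the tumour at 274. IL1F10, a neighbouring family gene outside the 10 members, ran from 5.46 to 28.3 normalised counts in the 8 tumours and from 1.78 to 18.3 in the 15. Its median was 24.3 in the 8 and 7.37 in the 15. The 18.3 was WT 6C9 5533, where it rests on 2 reads, and without this tumour the lower group reached 13.4. In the higher group KO 1G10 5549 had the 5.46, and the next lowest was WT 6C9 5531 at 17.9. With the chromosome 20 level as a covariate, chosen after the data were seen, the KO minus WT difference was -0.27 for IL1A and -0.15 for IL36RN.

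**Figure D5:**
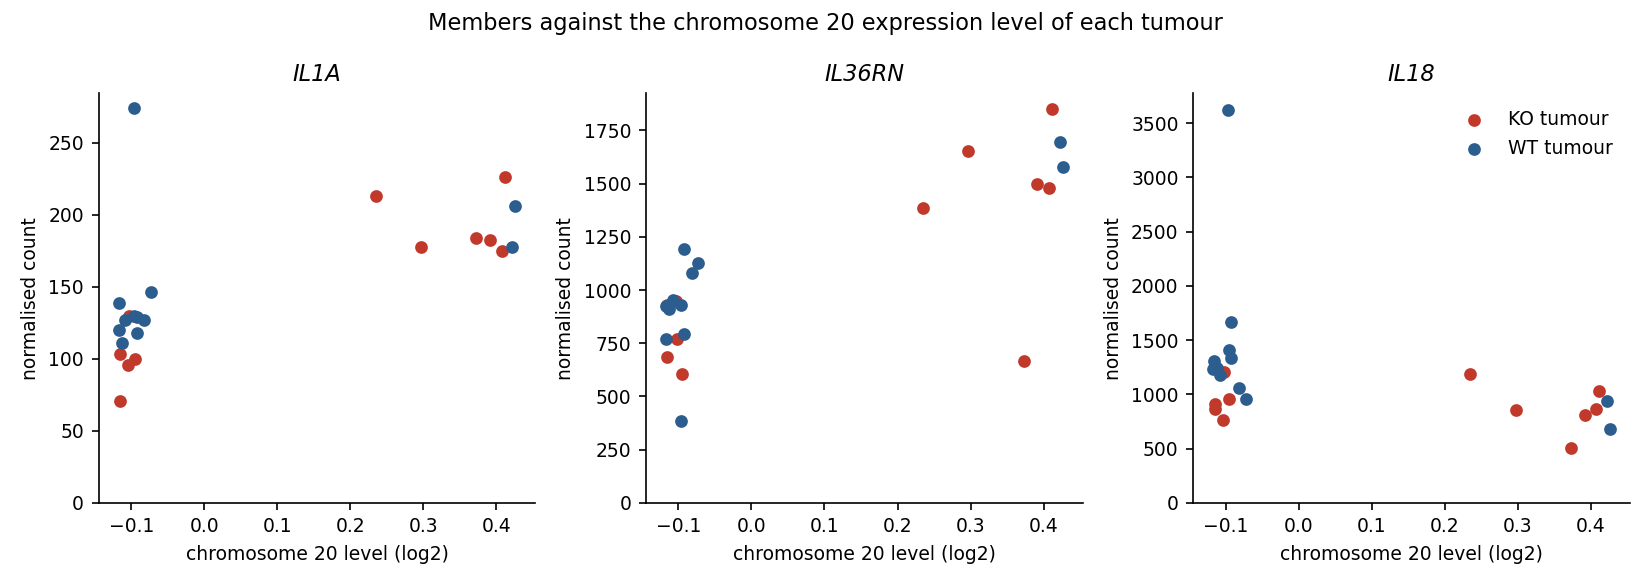
Normalised count of IL1A, IL36RN and IL18 against the chromosome 20 level (log2, median of chromosome 20 genes relative to all genes) of each KO (red) and WT (blue) tumour. The 8 tumours at 0.23 to 0.43 have 175 to 226 of IL1A, the WT tumour at 274 among the others is 6C9 5533, and IL36RN is at 1385 to 1850.0 in 7 of the 8.

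Among 21 pairs of members, IL36G and IL36RN varied together within KO tumours. Their r was 0.83 within the 11 KO tumours (permutation, adjusted p = 0.0120), where the rho of 0.75 did not pass (adjusted p = 0.0945), and 0.15 within the 12 WT tumours (adjusted p = 0.746, rho 0.46). WT 6C9 5533, with IL36G at 100.5 and IL36RN at 384, was low in the antagonist and high in the agonist. Since IL36RN follows the chromosome 20 split, the pair was also read on either side of it, where r was 0.79 in the 8 tumours of higher level, 0.05 in the 15 of lower level and 0.77 in the lower-level tumours without the 2 shallow libraries (n = 13, permutation, adjusted p = 0.0211). These 13 were 5 KO and 8 WT tumours, so the pair varied together across both genotypes there.

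IL1B and IL18, both substrates of caspase-1, ran in opposite directions, with an r of -0.75 over 23 tumours (permutation p = 0.00045, adjusted p = 0.00472, rho -0.52 with adjusted p = 0.0615). It was -0.62 without the 2 tumours farthest from the IL1B median (adjusted p = 0.0216), -0.39 within KO tumours (adjusted p = 0.421) and -0.91 within WT tumours, where the rho was -0.58 (adjusted p = 0.351) and 6C9 5533 had the highest IL18 and 0 IL1B. Without the 2 shallow libraries it was -0.53 (adjusted p = 0.0485), and in the 13 of those tumours with the lower chromosome 20 level it was -0.13 (permutation, adjusted p = 0.967). IL1RN and IL36B had an r of 0.85 within KO tumours (permutation, adjusted p = 0.0120) and 0.34 within WT tumours (adjusted p = 0.467). The rho within KO tumours was 0.77 (adjusted p = 0.0945). Without the 2 shallow libraries, 1 of which was at 0 for IL36B, r was 0.79 over 21 tumours of both genotypes (permutation, adjusted p = 0.000735, rho 0.59 with adjusted p = 0.0292). The difference between genotypes in these correlations was not tested.

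The receptors leaned in both directions without a call. Of 9 receptors and binding proteins listed, 7 were tested and 0 called, with 1 higher and 1 lower in KO tumours at an unadjusted p under 0.05 and a median log2 difference of 0.15 (-0.07 without WT 6C9 5533). Over all genes 12.5% passed that mark in either direction. IL1RAP, the accessory chain of the receptors for IL1A, IL1B, IL33 and the IL36 agonists, ran from 502 to 750.1 normalised counts with a median of 605 in KO tumours and from 219 to 612 with a median of 525 in WT tumours. Its log2 difference was 0.36 (95% interval 0.092 to 0.62, unadjusted p = 0.010, adjusted p = 0.287 in limma). IL1R1, the signalling receptor of IL1A and IL1B, ran from 254 to 470 with a median of 336 in KO tumours and from 256 to 558 with a median of 475 in WT tumours, a difference of -0.34 (95% interval -0.61 to -0.061, unadjusted p = 0.019, adjusted p = 0.321 in limma). The groups overlapped for both, and WT 6C9 5533 was the lowest WT tumour in both. Without it the differences were 0.25 for IL1RAP and -0.41 for IL1R1 (adjusted p = 0.145 and 0.136 in limma). IL1RL2, the interleukin-36 receptor, chosen after its values were seen, averaged 44.2 ± 9.48 in KO tumours and 42.9 ± 17.7 in WT tumours (SD, n = 11 and 12), and IL18R1 was under the limit for testing.

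Of 19 signalling genes 18 were tested and 0 called, with a median log2 difference of 0.05 (-0.02 without WT 6C9 5533). TOLLIP, an adaptor that restrains the pathway, averaged 2002 ± 236 in KO tumours and 2032 ± 296 in WT tumours, and the kinase IRAK1 averaged 1843 ± 152 in KO tumours and 1883 ± 238 in WT tumours (SD, n = 11 and 12). IRAK2, chosen after its values were seen, was the 1 gene under an unadjusted p of 0.05, at 19.6 ± 6.41 in KO tumours and 30.2 ± 12.5 in WT tumours, a log2 difference of -0.58 (adjusted p = 0.304 in limma). That mark was passed by 12.5% of all genes.

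Of 22 genes for processing and release, 16 were tested and 0 called, with 1 higher and 3 lower at an unadjusted p under 0.05 and a median log2 difference of -0.08. The share of all genes past that mark was 12.5% in either direction. CAPN1, a calpain, averaged 4851 ± 243 in KO tumours and 4569 ± 790.0 in WT tumours, and the epidermal pore protein GSDMA averaged 1672 ± 758 in KO tumours and 2538 ± 864 in WT tumours (SD, n = 11 and 12), a difference of -0.71 (adjusted p = 0.342 in limma). Chosen after their values were seen, the inflammasome adaptor PYCARD had a difference of -0.40, the inflammasome-related NLRP10 -1.15 and the pore protein GSDME 0.38, with adjusted p of 0.321, 0.304 and 0.244 in limma. PYCARD was -0.26 without WT 6C9 5533, which had 3434 against a KO range of 667 to 1136. CASP1, which cuts IL1B and IL18, had a median of 204 in KO tumours and 215 in WT tumours.

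Of 28 genes known to be induced by the family in keratinocytes, 15 were tested and 0 called, with 0 higher and 5 lower at an unadjusted p under 0.05 and a median log2 difference of -0.16. In either direction 12.5% of all genes passed that mark. Without WT 6C9 5533 there were 1 higher and 7 lower, a setting for which the share over all genes is not given here. S100A9 averaged 59614 ± 17505 in KO tumours and 102720 ± 84277 in WT tumours, and S100A8, its partner in calprotectin, averaged 45853 ± 14466 in KO tumours and 75663 ± 59381 in WT tumours (SD, n = 11 and 12), with log2 differences of -0.62 and -0.57 (adjusted p = 0.332 and 0.357 in limma). WT 6C9 5533 had 364548 of S100A9 and 259075 of S100A8, the highest values, and without it the differences were -0.43 and -0.39. The other 3, chosen after their values were seen, were S100A7 at -0.87, S100A12 at -1.03 and the siderophore binder LCN2 at -1.37. WT 6C9 5533 was the highest tumour in these 3 as well, and without it they were at -0.65, -0.84 and -1.21. These antimicrobial genes also belong to keratinocyte differentiation programmes, whose part in their values was not tested. The chemokines CXCL1 and CXCL8 had differences of 0.40 and -0.04, which were 0.51 and 0.05 without WT 6C9 5533. Also chosen after their values were seen, the antimicrobial DEFB4A, ICAM1 and PTGS2 were on the higher side without it, at 0.43, 0.33 and 0.19.

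Markers of other cells are set beside these values because the mouse host supplies stroma whose reads can be assigned to human genes. Of 19 myeloid and mast cell markers 12 had values, none was at 0 in every tumour, and their summed level ran from 431 to 669 in KO tumours and from 496 to 674 in WT tumours, most of it CD68. The leukocyte marker PTPRC averaged 7.14 ± 6.07 in KO tumours and 3.75 ± 3.54 in WT tumours (SD, n = 11 and 12), with 0 in 3 tumours. The summed level of 10 endothelial markers ran from 416 to 566 in KO tumours and from 393 to 579 in WT tumours, and that of 10 fibroblast markers from 3916 to 28409 in KO tumours and from 2430.0 to 16916 in WT tumours. Of 4 endothelial markers tested, 1 was higher (EGFL7, 0.45) and 1 lower (VWF, -0.77) in KO tumours at an unadjusted p under 0.05, and of 8 fibroblast markers 1 was higher (FAP, 0.54), with 0 called by limma. All genes passed that unadjusted mark at a share of 12.5% in either direction. The median log2 difference of the fibroblast markers was 0.44, and 0.082 without the 2 shallow libraries. Their part in the values of the members was not tested.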

How the data were processed

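Poly(A) libraries of 23 tumours were analysed from 1 deposited table, in which the authors give a scaled signal (normalised counts) per gene and tumour. The submitters' processing notes name STAR, DESeq2 and hg38; versions, counting, strand setting and handling of mouse reads are not given in the sources used here. 0 value columns belonged to no sample. Low values repeat at a step taken as 1 read, and 69.6% to 82.4% of values up to 20 reads were whole multiples within 0.02 reads, so reads are estimates and no count test was run. Every pair of libraries differed beyond sampling noise (chi-square at least 7.70 per degree of freedom). The stop of a gene in the table lies 1 base past its end and was corrected.

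Genes with a mean of at least 10 (16063) were tested on log2(value + 1), a scale that understates changes of low genes, with limma 3.58.1 in R 4.3.3, line as random block (consensus correlation 0.0077) and Benjamini-Hochberg adjustment at 0.05. Every line has 1 genotype, so genotype rests on 3 lines a side. Correlations and ratios used 100000 permutations. Exon lengths are merged GENCODE release 29 exons. The tests were tried on simulated data. The members and lists were chosen with earlier results of these data known. For the receptor, signalling, processing and target lists the genes past the threshold, or else the 2 with the highest mean, are named; marker genes named beside them were chosen after their values were seen, and for likeness the 2 genes of highest rho.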

Additional observations from a re-analysis of the deposited data

Results flagged for a closer look

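Within lines of 4 tumours, 35 groups of values of the tested members were screened for a tumour far from the other 3, by Dixon's test at the 95% level, and 3 stood apart. Chance flags about 1 in 20 groups. IL1B was at 5.16 normalised counts in KO 2B8 5545, against 15.5 to 17.3 in the rest of that line. IL1B was at 6.05 in WT 6C10 5534, against 12.4 to 13.6 in the rest of that line. IL36B was at 0 in WT 6C9 5533, the library of lowest depth, against 37.1 to 74.1 in the rest of that line; 3 reads there would give 27.4.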

How the results depend on the processing

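IL18 stayed lower in KO tumours under every alternative run (log2 difference -0.60 to -0.16), and the members called stayed at 0 except with library quality weights, where 1 was called. The genes called between KO and WT were 1 as reported, 738 with those weights, and 0 with line means, with libraries rescaled to the same total, with the late differentiation score or the chromosome 20 level as covariate, and without the 2 shallow libraries. Leaving out 1 tumour at a time gave 0 to 2. Without a filter on low values 1 gene was called in line 2F7 and 1 in line 2B8. Leaving out 1 tumour gave 0 to 17 genes in line 2B8, 0 to 26 in line 1G10 (26 without WT 6C9 5531, and 16 in 1G10 and 17 in 2B8 without WT 5B2 5529) and 0 to 2 among WT lines, with 0 members in each.

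Small differences changed sign. A pseudocount of 5 gave IL36B -0.067. Equal totals gave IL1A 0.017 and IL36G 0.020. Quality weights gave IL1A 0.090, IL36G 0.18 and IL36B -0.26. The late differentiation covariate gave IL1B -0.038 and IL1RN 0.053, and the chromosome 20 covariate gave IL36RN -0.15 and IL36B -0.038. Without the shallow libraries IL1A was 0.043, IL36RN -0.033 and IL36B -0.32. Leaving out 1 tumour gave IL1A -0.10 to 0.064, IL36G -0.15 to 0.078, IL36RN -0.0027 to 0.20, IL36B -0.39 to 0.18 and the log2 ratio of IL36RN to IL36G -0.043 to 0.26. The causes were not tested.

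The correlation with the late differentiation score was 0.11 for IL1A without the 2 farthest tumours and 0.0090 within KO tumours. Within WT tumours it was 0.14 for IL1RN, 0.45 for IL18 and -0.028 for IL36B. Within KO tumours it was 0.82 for IL36B, 0.18 for IL36G and 0.33 for IL36RN. Without the shallow libraries it was 0.70 for IL36B and 0.057 for IL36RN. No paired analysis was possible because the specimen numbers are not shared between the groups. Depth limits IL33, IL37 and IL1B, which rest on few reads. The chromosome 20 covariate, the ratios, the list values without the shallow libraries, the member pairs and the correlations without the shallow libraries were chosen after the data were seen.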
